A study of Mus musculus with 24 samples.

Results

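Histone lysine methyltransferases and demethylases were followed in mouse frontal cortex, through the 40 protein-coding genes whose symbols begin with Kmt, Kdm, Setd or Nsd and a number, or are Ash1l, Ehmt1, Ehmt2, Ezh1, Ezh2 or Suv39h1. They are 40 of 57180 genes in the expression table and 40 of the 16578 genes tested, which reached 10 in 6 or more libraries. Names alone gave 46 matches, of which 3 were not protein coding; Kdm5c, Kdm5d and Kdm6a were set aside by name. All 40 remaining genes passed the minimum, and 39 of them reached 10 in every library, the exception being Kdm4d. The set holds 25 genes of the SET-domain family, most of them methyltransferases ("writers"), and 15 demethylases ("erasers").

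Writers transfer a methyl group from S-adenosylmethionine to a lysine of a histone tail, and erasers remove it, either by amine oxidation (the LSD family) or with a Jumonji C domain that uses oxygen and 2-oxoglutarate. The lysine decides what the mark is known for: H3K4 methylation lies at active promoters and enhancers, H3K36 methylation over transcribed gene bodies, and H3K9 and H3K27 methylation at silenced chromatin. Many of these enzymes are large proteins with long messenger RNAs, and loss of a single copy of several of them causes neurodevelopmental disorders in humans.

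RNA was measured by bulk sequencing in frozen punches of frontal cortex from wild-type male C57BL/6 mice described as 4 weeks old. Every group received an intraperitoneal injection once a day for 28 days, of vehicle, of sarcosine at 100 mg/kg, of memantine at 20 mg/kg or of both drugs at these doses (the combination), with 6 libraries per group and 24 in all. Sarcosine is N-methylglycine, which raises glycine at the NMDA receptor by blocking its transporter, and memantine blocks the channel of that receptor; the title of the series speaks of expression changes that memantine can reverse. The sample titles number the libraries and do not say whether each is a separate animal, so p-values measure the spread between these samples.

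Values are the authors' read counts divided by a size factor per library, called normalised counts below, and rest on 12678114 to 21844579 reads per library. Depth differed between the groups, at 15543738 to 17425235 reads with vehicle and 17008198 to 21844579 with sarcosine. Memantine libraries had 12678114 to 19714592 reads and combination libraries 14700861 to 15653093. The part of depth in the calls was not tested. The 8 markers of cortical excitatory neurons summed to 9263 normalised counts at the lowest and 57049 at the highest, and none was at 0 in any library. The lowest were sarcosine replicate 1 at 9263 and sarcosine replicate 4 at 16205, against 19782 or more with vehicle. Group medians were 41782 with vehicle and 41194 with sarcosine. Striatal neuron markers summed to 35148 and 15578 in those sarcosine libraries, against at most 10154 with vehicle and 17640 with the combination. The punches also differed in what else they held. Summed choroid plexus markers were 34770 to 56021 normalised counts in 3 libraries (sarcosine replicate 1, memantine replicate 3 and combination replicate 1) against a median library of 354.3, and olfactory bulb markers were over 3 times their median library in 5 others (sarcosine replicate 5, memantine replicates 4 and 5, combination replicates 5 and 6). Group effects are log2 fold changes fitted with limma on log2(normalised count + 1) over the 24 libraries, and a gene counts as called at a Benjamini-Hochberg adjusted p under 0.05 over all genes tested. In bulk tissue, fewer cells of a type and less RNA per cell cannot be told apart.

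The genes differed widely in level. Per kilobase of the longest annotated transcript, the mean over all libraries was highest for Ehmt2 (1068 normalised counts per kb), the H3K9 methyltransferase G9a. It was followed by Setd3, an actin histidine methyltransferase named for its SET domain (802 per kb), and Kdm1a, the H3K4 demethylase LSD1 (383 per kb). Kdm4d, an H3K9 demethylase, was lowest at 5.52 per kb, and Kdm8 was next at 26.7 per kb. Kmt5a, which places the first methyl group on H4K20, stood at 331 per kb, above its relative Kmt5c at 70.0 per kb. Ezh1 stood at 287 and Ezh2 at 45.8 per kb; both are catalytic subunits of the Polycomb complex PRC2.

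Promoters of the genes were mostly dense in CpG and GC boxes. RefSeq windows on GRCm38.p6 (250 bases up to the transcript start) were matched by symbol for 28 of the 40 genes, 40 windows in all. Windows of the same gene can overlap and were counted separately. In 34 of the 40 windows the bases after the start matched a GENCODE transcript of the gene. The 40 windows held a median of 21.5 CpG, against 6 over all 32851 windows in the table. Those cover 27025 symbols with no filter on expression or biotype, so they are not a matched background. GC boxes (GGGCGG, both strands, overlaps counted separately) were found in 26 of the 40 windows, 65.0%, against 32.7% of all windows. For the other motifs searched on both strands, CCGGAAG (the ETS core) was in 5 windows, 12.5% against 6.91% of all windows. TGACGTCA (the CRE palindrome) was in 0, against 1.55%. GC boxes were in 12 of 17 windows of the genes that were higher after sarcosine (70.6%) and in 14 of 23 windows of the others (60.9%). The windows of Setd2 and Kmt2c are shown because both genes were called in the sarcosine comparison and in the interaction below, and 1 of the 2 Setd3 windows because that gene was called in no comparison. Capitals mark the GC boxes. Setd2 lies at chr9:110532347-110532596 on the plus strand, Kmt2c at chr5:25498784-25499033 on the minus strand and Setd3 at chr12:108179242-108179491 on the minus strand, each written along its gene's strand.
Setd2: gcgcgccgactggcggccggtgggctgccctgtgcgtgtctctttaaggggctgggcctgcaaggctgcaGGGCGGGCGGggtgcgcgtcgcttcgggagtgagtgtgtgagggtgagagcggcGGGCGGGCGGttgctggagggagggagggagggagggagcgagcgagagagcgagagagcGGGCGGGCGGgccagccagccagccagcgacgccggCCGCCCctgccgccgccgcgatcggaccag
Kmt2c: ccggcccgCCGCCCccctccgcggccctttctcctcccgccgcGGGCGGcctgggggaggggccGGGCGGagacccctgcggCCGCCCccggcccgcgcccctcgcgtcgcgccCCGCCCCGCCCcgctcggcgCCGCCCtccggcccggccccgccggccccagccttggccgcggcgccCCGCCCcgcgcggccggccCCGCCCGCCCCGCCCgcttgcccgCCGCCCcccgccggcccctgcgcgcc
Setd3: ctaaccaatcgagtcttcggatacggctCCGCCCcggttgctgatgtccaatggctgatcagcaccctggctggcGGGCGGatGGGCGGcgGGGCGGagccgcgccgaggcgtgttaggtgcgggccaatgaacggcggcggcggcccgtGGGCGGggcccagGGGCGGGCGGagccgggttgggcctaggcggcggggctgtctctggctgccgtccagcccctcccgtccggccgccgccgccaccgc
Setd2 holds 7 GC boxes and 31 CpG, Kmt2c 12 GC boxes and 48 CpG, and Setd3 7 GC boxes and 33 CpG, so the uncalled gene has as many boxes as Setd2. A match is a match of letters and no evidence of binding.

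Sarcosine alone was the treatment with the most changes in these genes. Compared with vehicle, 20 of the 40 genes rose and 0 fell, while 4.72% of all genes tested rose and 4.62% fell. Scaling the libraries to their upper quartile moved that split from 782 higher and 766 lower to 603 and 1177, with 16 of the 40 genes higher and 0 lower. The called genes had log2 fold changes from 0.24 (Kmt2e) to 0.54 (Ash1l), and all 6 sarcosine libraries were above the mean of vehicle for each of them but Kmt2e, with 5 of 6. They covered all 5 H3K36 writers, 6 of 8 genes grouped as H3K4 writers and 7 of 13 JmjC demethylases, with 1 of 3 H3K9 writers and 1 of 3 H4K20 writers. The grouping is by listed role, Kmt2e among the H3K4 writers, and enzyme activity was not measured. None of the 2 H3K27 writers, 2 LSD demethylases and 4 other SET genes was called. The median log2 fold change of the 40 genes was 0.27 and 31 were positive, beside a median of -0.0032 over all genes tested. These calls moved with transcript length, which is set out after the values: after correction for length and GC content 0 of the 40 genes were called.

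**Figure D1:**
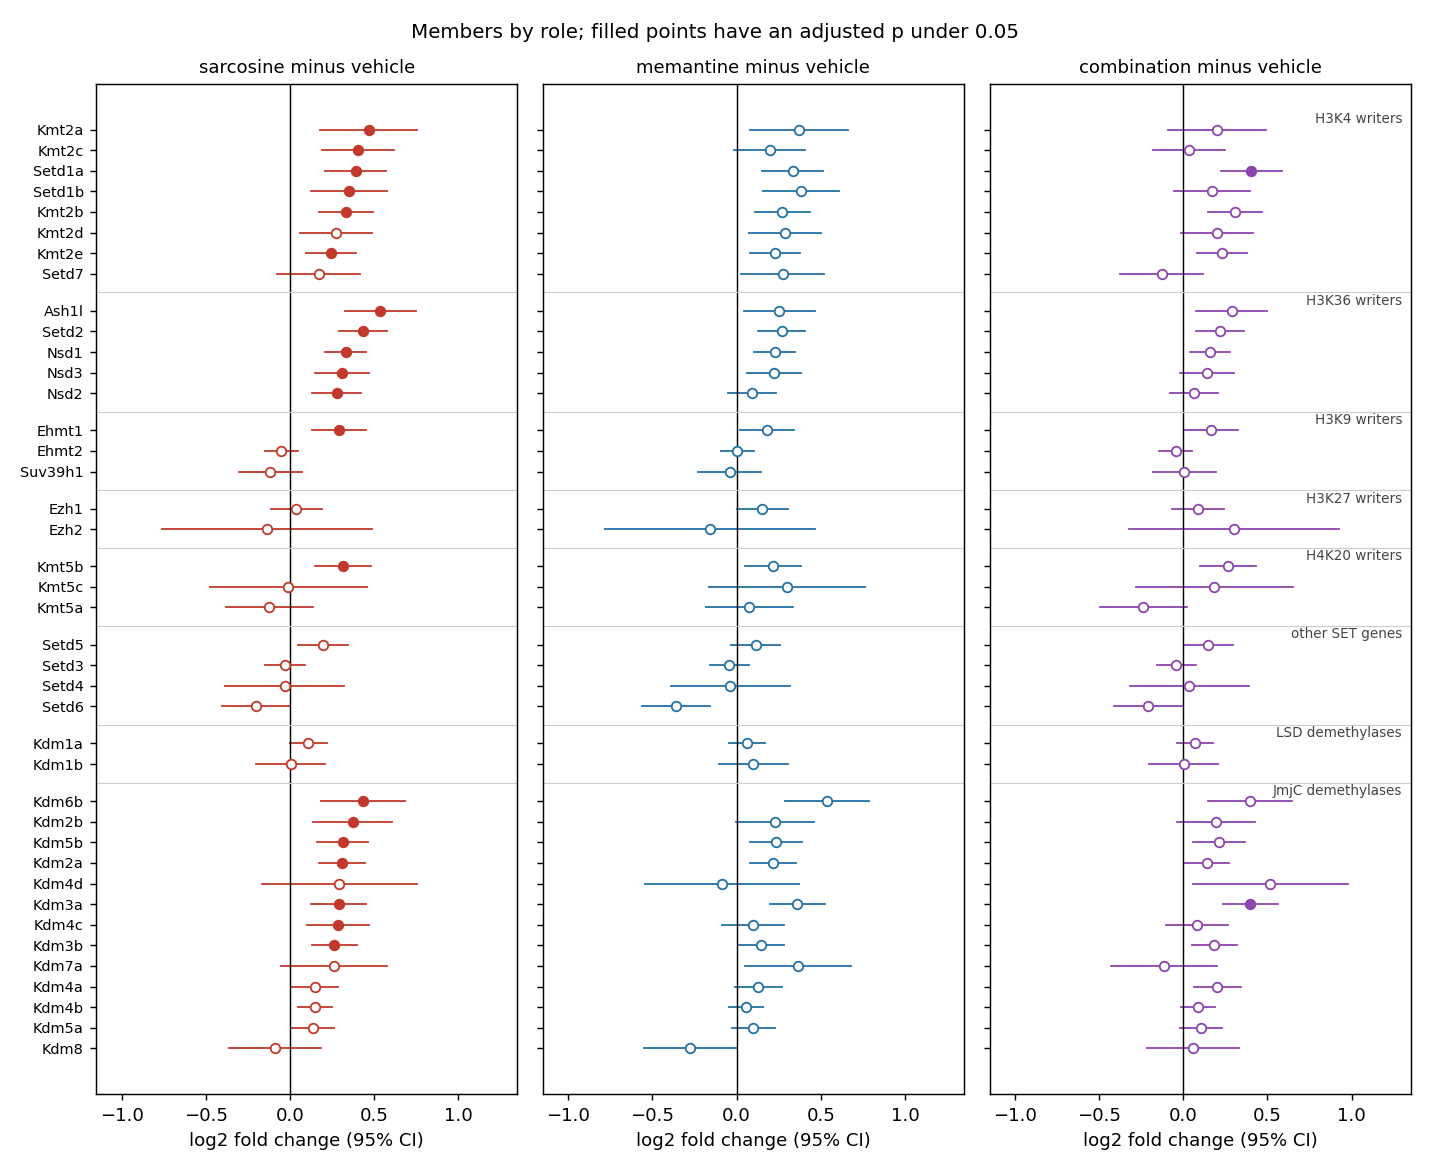
Log2 fold change with 95% confidence interval of each of the 40 genes against vehicle, by role, in 1 panel per drug group; filled points have an adjusted p under 0.05. With sarcosine 20 points are filled, with memantine 0 and with both drugs 2, and the H3K36 writers lie right of 0 in all 3 panels.

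Setd2, the enzyme that trimethylates H3K36, was at 957 to 1114 normalised counts with vehicle (median 998) and at 1165 to 1472 with sarcosine (median 1441). It was at 1155 to 1305 with memantine (median 1209) and at 1023 to 1273 with the combination (median 1231). Every sarcosine and memantine library lay above every vehicle library, while combination libraries overlapped vehicle. Setd2 rose by 0.43 log2 with sarcosine (SE 0.069, adjusted p = 0.0013). Nsd1, which dimethylates H3K36 and is mutated in Sotos syndrome, had 1836 to 2060 normalised counts with vehicle (median 1981), 2230 to 2758 with sarcosine (median 2513), 2152 to 2575 with memantine (median 2249) and 2038 to 2436 with the combination (median 2194). Its sarcosine and memantine libraries again all lay above vehicle. The rise with sarcosine was 0.33 log2 (SE 0.059, adjusted p = 0.0018). Ash1l, an H3K36 dimethyltransferase of the Trithorax group, had the largest change of the set. Its values were 1858 to 2240 normalised counts with vehicle (median 2017) and 2234 to 3325 with sarcosine (median 3199). With memantine they were 2142 to 2697 (median 2397), and with the combination 1975 to 3146 (median 2549). A single sarcosine library, replicate 4, fell inside the vehicle range. Ash1l rose by 0.54 log2 (SE 0.10, adjusted p = 0.0026).

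Nsd3 and Nsd2, the other dimethylating relatives of Nsd1, showed smaller changes. Nsd3 was at 1282 to 1528 normalised counts with vehicle (median 1445), 1531 to 1959 with sarcosine (median 1857), 1457 to 1763 with memantine (median 1672) and 1382 to 1905 with the combination (median 1557). Sarcosine libraries stood just above vehicle without overlap, and Nsd3 rose by 0.31 log2 (SE 0.077, adjusted p = 0.0125). Nsd2 was at 1362 to 1606 normalised counts with vehicle (median 1541), 1597 to 1978 with sarcosine (median 1890), 1502 to 1682 with memantine (median 1599) and 1350 to 1776 with the combination (median 1569). Its sarcosine and vehicle ranges met at their ends. Nsd2 rose by 0.28 log2 (SE 0.069, adjusted p = 0.013).

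**Figure D2:**
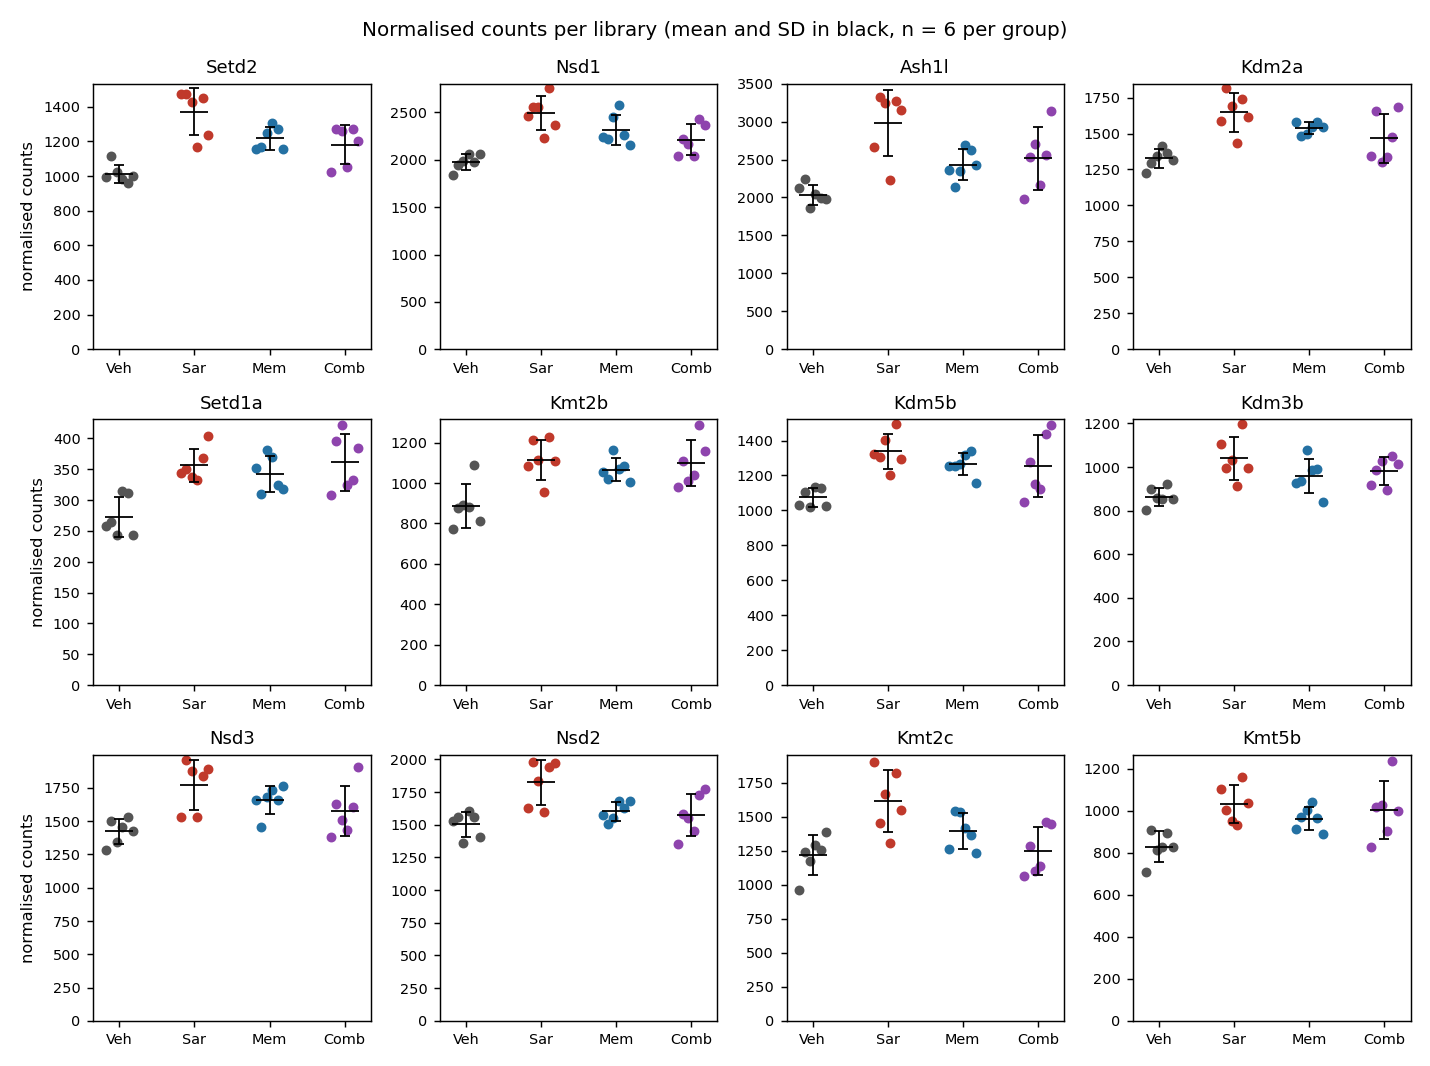
Normalised counts per library of 12 genes, those with the smallest p for sarcosine against vehicle, with mean and SD of the 6 libraries per group in black. For Setd2 the sarcosine libraries sit between 1165 and 1472, all above the vehicle libraries, and the combination libraries between 1023 and 1273.

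Among the genes grouped as H3K4 writers, the 2 of the SETD1 complexes and 4 of the MLL family rose with sarcosine. Setd1a, a catalytic subunit of the complexes that trimethylate H3K4 at promoters, had 243 to 314 normalised counts with vehicle (median 261) and 333 to 404 with sarcosine (median 347). It had 310 to 381 with memantine (median 338) and 308 to 422 with the combination (median 359). All sarcosine libraries lay above vehicle, and single libraries of the other drug groups reached into the vehicle range. Setd1a rose by 0.39 log2 with sarcosine (SE 0.088, adjusted p = 0.0067). Kmt2b, an MLL-family writer at promoters, was at 773 to 1091 normalised counts with vehicle (median 878), 955 to 1226 with sarcosine (median 1110), 1006 to 1163 with memantine (median 1062) and 979 to 1289 with the combination (median 1075). Vehicle replicate 5 lay among the treated libraries and the other vehicle libraries lay below all of them. Kmt2b rose by 0.33 log2 (SE 0.078, adjusted p = 0.0087).

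Kmt2c, which monomethylates H3K4 at enhancers, had 961 to 1389 normalised counts with vehicle (median 1246), 1304 to 1903 with sarcosine (median 1608), 1232 to 1540 with memantine (median 1389) and 1061 to 1458 with the combination (median 1213). Sarcosine was highest, the ranges overlapped, and combination and vehicle had close medians. Kmt2c rose by 0.41 log2 with sarcosine (SE 0.10, adjusted p = 0.014). Kmt2a (0.47, adjusted p = 0.036), Setd1b (0.35, adjusted p = 0.042) and Kmt2e (0.24, adjusted p = 0.033) also rose, with ranges that overlapped vehicle. Kmt2d, a relative of Kmt2c and the gene of Kabuki syndrome, had a log2 fold change of 0.27 (95% CI 0.06 to 0.49, adjusted p = 0.10). Setd7, a monomethyltransferase that also acts on non-histone proteins, had 0.17 (95% CI -0.07 to 0.42, adjusted p = 0.44).

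Writers of the silencing marks were mostly not called. Roles also differed in the longest transcript, at 7786 (Nsd2) to 12784 bases (Nsd1) for the H3K36 writers. Ehmt2 has 4026 bases, Suv39h1 3116, Ezh1 4207 and Ezh2 2787, while Ehmt1, which was called, has 5953. Among the H4K20 writers Kmt5b, also called, has 6130, Kmt5a 2739 and Kmt5c 2774. The part of role apart from length was not tested. Ehmt1, which forms the H3K9 dimethylating dimer with Ehmt2, rose by 0.29 log2 with sarcosine (SE 0.077, adjusted p = 0.019) from a mean of 528 ± 44.5 to 646 ± 60.5 normalised counts (SD, n = 6). Its partner Ehmt2 had a log2 fold change of -0.05 (95% CI -0.15 to 0.05) and Suv39h1, which trimethylates H3K9 in heterochromatin, one of -0.12 (95% CI -0.30 to 0.07). Ezh1 had 0.04 (95% CI -0.12 to 0.19) and Ezh2 -0.13 (95% CI -0.76 to 0.49), an interval that leaves room for changes in either direction. For H4K20, Kmt5b, which adds further methyl groups to it, had 707 to 910 normalised counts with vehicle (median 826), 930 to 1162 with sarcosine (median 1022), 888 to 1040 with memantine (median 967) and 828 to 1238 with the combination (median 1010). Its sarcosine libraries lay above all vehicle libraries, and it rose by 0.31 log2 (SE 0.080, adjusted p = 0.015). Kmt5a (-0.12, adjusted p = 0.65) and Kmt5c (-0.01, adjusted p = 0.99) did not pass. Of the other SET genes, Setd5, mutated in intellectual disability, had 0.20 (adjusted p = 0.084) and Setd6 -0.20 (adjusted p = 0.22), with Setd3 and Setd4 both at -0.03.

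Of the 15 demethylases 7 rose with sarcosine, all of them JmjC enzymes. Kdm2a, a CpG-island-binding H3K36 demethylase, was at 1225 to 1414 normalised counts with vehicle (median 1331), 1433 to 1817 with sarcosine (median 1655), 1483 to 1583 with memantine (median 1546) and 1303 to 1685 with the combination (median 1410). Sarcosine and memantine libraries all lay above vehicle, and 3 combination libraries, replicates 1, 3 and 4, lay inside the vehicle range. Kdm2a rose by 0.31 log2 with sarcosine (SE 0.065, adjusted p = 0.0048). Kdm5b, an H3K4 demethylase, was at 1021 to 1132 normalised counts with vehicle (median 1069), 1200 to 1497 with sarcosine (median 1315), 1157 to 1342 with memantine (median 1260) and 1048 to 1490 with the combination (median 1215). The sarcosine and memantine ranges lay wholly above vehicle. Kdm5b rose by 0.31 log2 (SE 0.074, adjusted p = 0.0090). Kdm3b, an H3K9 demethylase, was at 802 to 921 normalised counts with vehicle (median 856), 915 to 1198 with sarcosine (median 1014), 842 to 1077 with memantine (median 962) and 896 to 1052 with the combination (median 1001). The lowest sarcosine library lay within the vehicle range, and Kdm3b rose by 0.26 log2 (SE 0.065, adjusted p = 0.012).

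Kdm3a, the H3K9 demethylase that responds to low oxygen, was at 534 to 625 normalised counts with vehicle (median 582), 627 to 764 with sarcosine (median 718), 672 to 822 with memantine (median 766) and 606 to 950 with the combination (median 774). All sarcosine and memantine libraries exceeded vehicle and combination replicate 1 alone did not. It rose by 0.29 log2 with sarcosine (SE 0.079, adjusted p = 0.021). Kdm6b, an H3K27 demethylase known to be induced by neuronal activity, was at 486 to 736 normalised counts with vehicle (median 570), 612 to 904 with sarcosine (median 819), 710 to 994 with memantine (median 869) and 638 to 882 with the combination (median 759). Each drug group overlapped the vehicle range. Kdm6b rose by 0.43 log2 with sarcosine (SE 0.12, adjusted p = 0.025). Kdm2b, which recruits a Polycomb complex to CpG islands (0.37, adjusted p = 0.037), and Kdm4c, an H3K9 and H3K36 demethylase (0.29, adjusted p = 0.042), were the other called erasers. Kdm4a and Kdm4b each had 0.15 and Kdm5a 0.14 log2, with adjusted p-values of 0.17, 0.057 and 0.18. Kdm8 had -0.09, and the LSD enzymes Kdm1a and Kdm1b had 0.11 (adjusted p = 0.22) and 0.0046 (adjusted p = 0.99). Kdm4d and Kdm7a, at 0.29 and 0.26, had adjusted p-values of 0.50 and 0.34.

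The ranges of sarcosine and vehicle did not overlap for 8 of the 40 genes, all higher with sarcosine: Setd2, Nsd1, Nsd3, Setd1a, Kmt5b, Kdm2a, Kdm3a and Kdm5b. Over all genes tested, 1.93% had all sarcosine libraries above all vehicle libraries. Single libraries recurred at the ends of the ranges. Of the 20 called genes, sarcosine replicate 4 was the lowest of its group for 16, combination replicate 1 for 16 and vehicle replicate 1 for 11. Without sarcosine replicate 5 13 genes were called, and without vehicle replicate 1 there were 14, with calls over all genes not given here. With the 5 libraries rich in olfactory bulb markers left out it was 12, beside 3.26% of all genes higher. With the 3 rich in choroid plexus markers left out it was 17, beside 4.51%.

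The called genes had longer transcripts than most of the others. The 40 genes have longest annotated transcripts of 1707 to 19823 bases (median 6246.5), against a median of 3281 bases for the 16287 tested genes with a length. The 20 genes that rose had 4196 to 16470 bases (median 8068), and the 20 others had 1707 to 19823 (median 3571). Under 4000 bases, 0 of 10 of the set rose with sarcosine, beside 0.811% of all genes in that class. From 4000 to under 8000 bases 10 of 17 rose, beside 9.46% of all genes. At 8000 bases and over 10 of 13 rose, beside 23.7%. Across the 40 genes, log2 fold change and log10 length had Pearson's r = 0.77 (Spearman's rho = 0.71), given as a description since the genes share the same libraries.

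**Figure D3:**
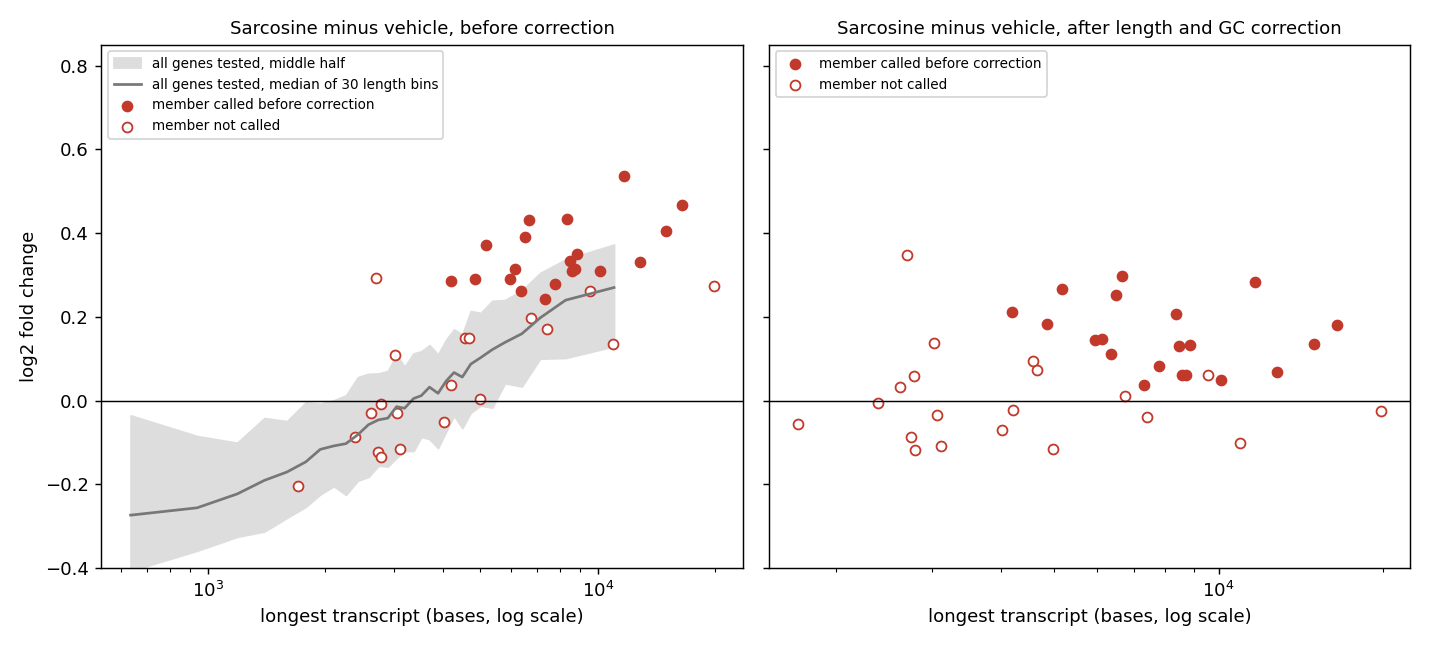
Log2 fold change of sarcosine against vehicle (y) by length of the longest transcript in bases (x, log scale), before (left) and after (right) correction for length and GC content. The grey line and band, drawn on the left only, are the median and the lower to upper quartile of all genes tested in 30 length bins. Filled points are the genes called before correction. Before correction the points climb with length, and 0 of the 10 genes under 4000 bases is filled; after it, the correlation with length is 0.23 and no gene is called.

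A slope on length over all genes was also taken in each library. For each library, log2 deviations from the gene means were regressed on log10 transcript length over all tested genes with a length, and the slope was -0.33 to -0.095 with vehicle and -0.09 to 0.29 with sarcosine. It was -0.040 to 0.15 with memantine and -0.27 to 0.24 with the combination. All vehicle libraries had negative slopes, and sarcosine replicate 4 was the only sarcosine library with one. The mean centred log2 value of the 40 genes followed this slope over the 24 libraries with r = 0.85 (rho = 0.82), and with r = 0.63 (rho = 0.59) after the group means were taken out. Without vehicle replicates 1 and 3, which lie farthest from the median slope, r was 0.79 over 22 libraries. These are descriptions with no test, and the 40 genes are themselves part of the libraries' slope.

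**Figure D4:**
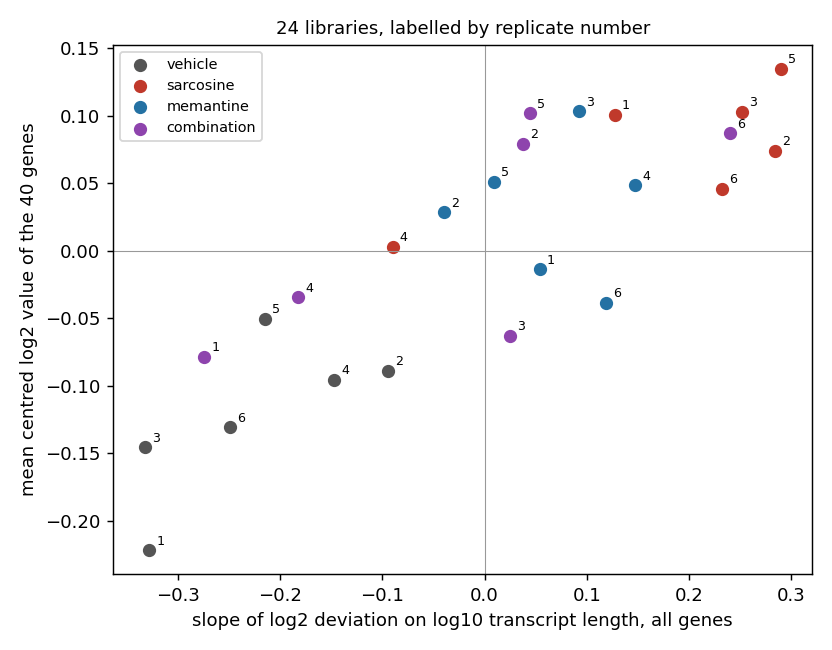
Each point is 1 of the 24 libraries, coloured by group and labelled by replicate number: x is the slope of log2 deviation on log10 transcript length over all genes, y the mean centred log2 value of the 40 genes. Vehicle libraries lie at the lower left and 5 of the 6 sarcosine libraries at the upper right; sarcosine replicate 4, at a slope of -0.09, lies nearer to the vehicle libraries.

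When a smooth trend on length and GC content was removed from each library, 0 of the 40 genes were called in the sarcosine comparison, while 0.46% of the 16287 genes with a length were called higher and 0.669% lower. The median log2 fold change of the 40 genes was then 0.066, with 28 positive. Setd2 had 0.21 after correction (adjusted p = 0.083), Setd1a 0.25 (adjusted p = 0.12) and Ash1l 0.28 (adjusted p = 0.15). Nsd1 had 0.07 (adjusted p = 0.74) and Kdm2a 0.06 (adjusted p = 0.86). A straighter and more robust form of the trend left 2 of the 40 called, beside 0.804% of all genes higher and 1.14% lower: Ash1l at 0.28 (adjusted p = 0.027) and Setd2 at 0.22 (adjusted p = 0.032). Since the length trend differed between the groups, its part in the rise and that of the drug cannot be told apart.

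Markers of other cells and regions were read in the same libraries. Of 8 microglial markers 4 were lower with sarcosine, and their sum was 7001 to 9488 normalised counts with vehicle and 6452 to 7415 with sarcosine. After length and GC correction 1 of the 8 was called lower. All 7 mural and meningeal markers tested were negative (median -0.36) and 0 were called. Of 8 cortical excitatory markers 2 were positive (median -0.25) and 0 were called. None of 8 oligodendrocyte markers was called, with sums of 55664 to 309784 with vehicle and 32253 to 219393 with sarcosine, and all 8 were negative (median -0.49). None of 9 striatal and 8 olfactory bulb markers was called either, though all of both lists were positive with sarcosine. Their sums were 4557 to 10154 and 2051 to 6328 with vehicle, and 4176 to 35148 and 2436 to 15573 with sarcosine. None of these markers was at 0 in a library except Tbx21 of the bulb list. Mitochondrial transcripts took 3.87% to 5.62% of reads with vehicle and 3.40% to 4.34% with sarcosine. With striatal, bulb and choroid plexus marker scores as covariates 19 of the 40 genes were called, beside 10.7% of all genes higher and 8.07% lower in that fit, and the part of the other markers in the calls was not tested.

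Memantine alone gave no call among the 40 genes with limma, where 0.0121% of all genes were called higher and 0 lower. At an unadjusted p under 0.05, 21 of the 40 genes passed, with 33 of 40 positive and a median log2 fold change of 0.19, beside 2441 of 16578 genes and a median of -0.0072 over all. No marker of another cell type or region was called in this comparison. All 8 olfactory bulb markers were positive (median 1.24, sums of 3307 to 16124 normalised counts with memantine against 2051 to 6328 with vehicle). All 8 oligodendrocyte markers were negative (median -0.46, sums of 30742 to 263364 against 55664 to 309784). Their part in the shift was not tested. Kdm3a had 0.36 (SE 0.079, adjusted p = 0.082), Kdm6b 0.54 (SE 0.12, adjusted p = 0.082) and Setd2 0.27 (SE 0.069, adjusted p = 0.11). All 6 memantine libraries lay above all vehicle libraries for 6 genes, Kdm3a, Setd2, Nsd1, Setd1b, Kdm2a and Kdm5b, beside 1.28% of all genes. DESeq2 called 8 genes higher and 1 lower, where it called 1.26% and 1.33% of all genes; the lower one was Setd6, which methylates the NF-kB subunit RelA (-0.36, adjusted p = 0.029). edgeR called 0 of the 40, and 0.0121% of all genes higher and 0.00603% lower. After length and GC correction limma called 0 of the 40, beside 0.00614% of all genes higher.

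With the combination, 2 of the 40 genes were higher than vehicle and 0 lower, beside 0.139% of all genes higher and 0.404% lower. Kdm3a rose by 0.40 log2 (SE 0.079, adjusted p = 0.043) and Setd1a by 0.40 (SE 0.088, adjusted p = 0.043), each above the vehicle mean in 6 of 6 libraries. Kmt2b, at 0.31 (SE 0.078, adjusted p = 0.064), did not pass. Neither passed in a fit of the 2 groups alone or after length and GC correction, where Kdm3a had 0.33 (adjusted p = 0.12) and Setd1a 0.31 (adjusted p = 0.13), beside 0.0123% of all genes higher and 0.0184% lower. With calls over all genes not given here for fits without 1 library, the count was 5 without combination replicate 1. It was 0 without any 1 of 14 libraries, which are vehicle replicates 1, 3, 4 and 6, sarcosine replicates 3, 5 and 6, memantine replicates 1, 2 and 4 and combination replicates 2, 3, 5 and 6. It was 4 with the choroid plexus libraries left out, beside 1.03% of all genes higher, and 0 with the olfactory bulb libraries left out, beside 0.0121%. Kdm4a was the 1 gene of the set with all combination libraries above vehicle (998 to 1133 against 873 to 971 normalised counts), beside 0.277% of all genes, with a log2 fold change of 0.20 (adjusted p = 0.14). These 3 comparisons share the vehicle libraries.

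Adding memantine to sarcosine gave no call. Combination against sarcosine had 0 of 40 genes called with limma, edgeR and DESeq2, beside 0% of all genes with limma and with edgeR and 0.0845% higher and 0.187% lower with DESeq2. With limma 10 of the 40 passed an unadjusted p under 0.05, beside 1443 of 16578 genes tested. All 5 H3K36 writers were negative and passed that unadjusted level: Setd2 had -0.22 (SE 0.069, adjusted p = 0.36), Nsd2 -0.21 (SE 0.069, adjusted p = 0.37), Nsd1 -0.17 (adjusted p = 0.39), Ash1l -0.25 (adjusted p = 0.47) and Nsd3 -0.17. Kmt2c had the smallest p of the set, at -0.37 log2 (95% CI -0.58 to -0.16, adjusted p = 0.34), with 6 of 6 combination libraries below the sarcosine mean. Combination against memantine likewise had 0 of 40 called with all 3 tools. With limma 5 of the 40 passed an unadjusted p under 0.05, beside 1280 of 16578 genes. Over all genes, limma called 0.0543% higher and 0 lower, edgeR 0.0603% higher and 0 lower, and DESeq2 0.235% higher and 0.133% lower.

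The 3 genes with the smallest p between combination and memantine were Setd7, Kdm7a and Kdm4d. Setd7 was at 2204 to 2916 normalised counts with vehicle (median 2486), 2385 to 3514 with sarcosine (median 2774), 2397 to 3474 with memantine (median 3170) and 1652 to 3036 with the combination (median 2309). Its groups overlapped, and the log2 fold change was -0.40 (SE 0.12, adjusted p = 0.29). Kdm7a, a demethylase of H3K9 and H3K27, was at 668 to 887 normalised counts with vehicle (median 811), 740 to 1111 with sarcosine (median 1065), 868 to 1178 with memantine (median 1069) and 456 to 1045 with the combination (median 775). Combination replicate 3 was its lowest library of all, and the log2 fold change was -0.48 (SE 0.15, adjusted p = 0.34). Kdm4d, close to the minimum, was at 11.2 to 15.7 normalised counts with vehicle (median 12.1), 12.4 to 20.6 with sarcosine (median 14.2), 8.19 to 20.1 with memantine (median 11) and 9.72 to 25.1 with the combination (median 19.8). It had a log2 fold change of 0.61 (SE 0.22, adjusted p = 0.43), with overlapping groups.

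Whether the effect of sarcosine differed with memantine present was tested as the interaction, in which the sarcosine effect on vehicle is subtracted from that on memantine. A total of 4 of the 40 genes were called, all negative, beside 1.24% of all genes negative and 0.579% positive (205 and 96 genes, or 132 negative and 343 positive under upper-quartile scaling, which kept 3 of the 4 calls): Setd2 at -0.48 (SE 0.097, adjusted p = 0.027), Nsd1 at -0.40 (SE 0.083, adjusted p = 0.028), Kdm2a at -0.39 (SE 0.092, adjusted p = 0.041) and Kmt2c at -0.57 (SE 0.15, adjusted p = 0.047). For these genes sarcosine against vehicle was 0.43, 0.33, 0.31 and 0.41, while combination against memantine was -0.05, -0.07, -0.08 and -0.16. Memantine against vehicle, at 0.27, 0.23, 0.22 and 0.20, entered the contrast as well. Of the 40 genes 32 had a negative interaction, with a median of -0.26, beside 0.012 over all genes. All 4 called genes have transcripts of 8000 bases or more, where 4 of 13 of the set and 8.17% of all genes were called negative. After length and GC correction 0 were called, as were 0% of all genes, with values of -0.22, -0.11, -0.12 and -0.28. The count was 0 without any 1 of 8 libraries, vehicle replicate 6, sarcosine replicates 2, 3 and 5, memantine replicates 3 and 4 and combination replicates 1 and 4. It was 1 or 2 without any 1 of 9 others, vehicle replicates 1, 3 and 4, sarcosine replicates 1 and 6, memantine replicates 1, 2 and 6 and combination replicate 3. It was 12 without sarcosine replicate 4 and 14 without combination replicate 6, with calls over all genes not given here for these fits. It was also 0 with the 3 choroid plexus libraries left out, where 0% of all genes were called negative, and 5 with the 5 olfactory bulb libraries left out, beside 1.33%. Markers of other cells in the same contrast were 4 of 8 microglial genes called positive (median 0.23, 0 called after correction). No marker of the other lists was called; all 8 oligodendrocyte markers were positive (median 0.71) and all 8 olfactory bulb markers negative (median -1.14). The part of these markers in the 4 calls was not tested.

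**Figure D5:**
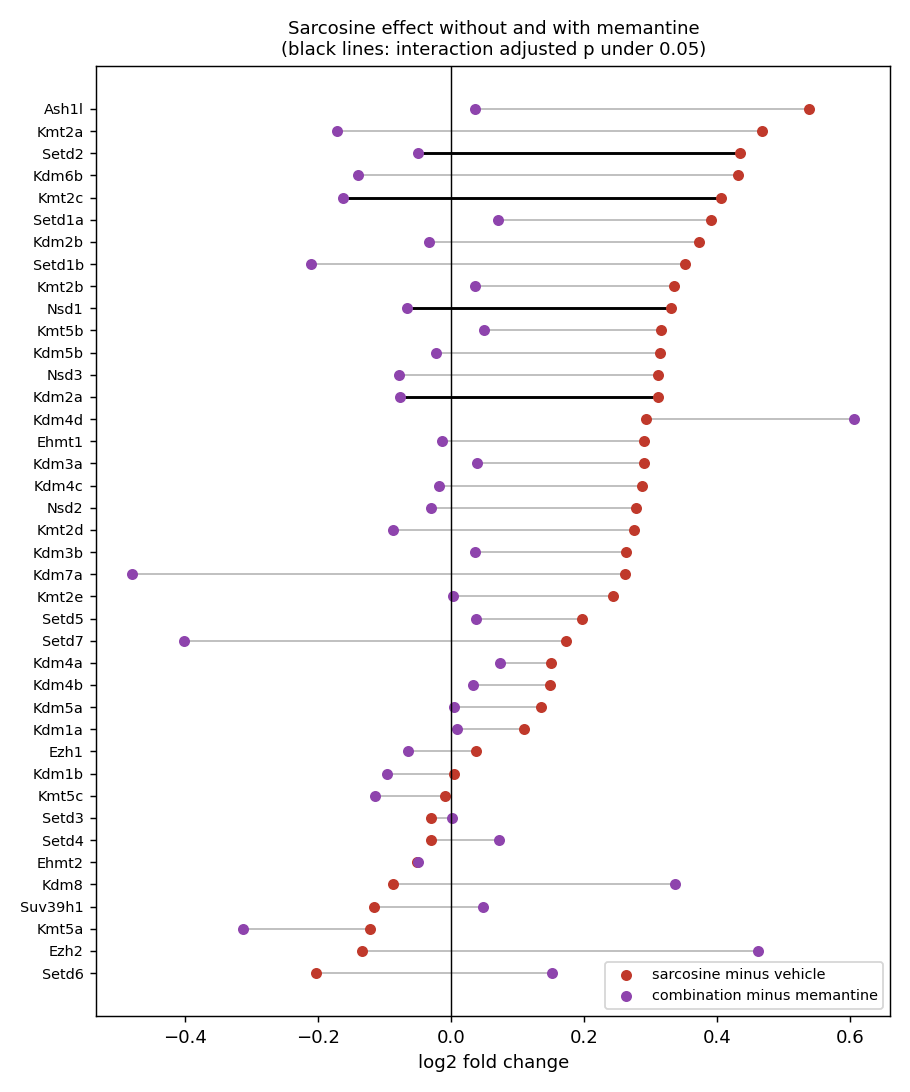
Log2 fold change of sarcosine against vehicle (red) and of combination against memantine (purple) for each of the 40 genes, ordered by the first; black lines join the values of the 4 genes called for the interaction. For Setd2 the points are 0.43 and -0.05, and for Kmt2c 0.41 and -0.16.

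Partners of these enzymes were followed as 72 genes in 7 lists, of which 71 were tested. The lists were chosen with earlier results of these data known, so their shares are a description and no independent support. With sarcosine 7 rose and 1 fell, 9.86% and 1.41% of those tested beside 4.72% and 4.62% of all genes, at a median log2 fold change of 0.066. In the list of LSD1 complex genes 3 of 10 rose: Gse1, a component of the LSD1 complexes (0.81, SE 0.12, adjusted p = 0.00096), Zmym2, which binds SUMO and LSD1 (0.38, SE 0.056, adjusted p = 0.00096) and Rcor1, the CoREST scaffold (0.29, adjusted p = 0.026). Gse1 had 378 to 575 normalised counts with vehicle (median 543) and 749 to 1015 with sarcosine (median 899), with no overlap. Zmym2 had 1110 to 1215 with vehicle (median 1153) and 1397 to 1608 with sarcosine (median 1501), also with no overlap. Among 11 PRC2 genes 2 rose, the core subunit Suz12 (0.35, SE 0.061, adjusted p = 0.0017) and Lcor, whose locus also encodes a PRC2 accessory protein (0.83, SE 0.18, adjusted p = 0.0066). Gse1, Zmym2, Suz12 and Lcor were still called after length and GC correction, at 0.64, 0.22, 0.27 and 0.72 log2, where 0.46% of all genes were called higher. In the interaction 4 of the 71 genes (5.63%) were called, all negative, beside 1.24% of all genes: Gse1 (-0.89, SE 0.17, adjusted p = 0.026), Zmym2 (-0.43, SE 0.079, adjusted p = 0.026), Rcor1 (-0.50, adjusted p = 0.039) and Suz12 (-0.34, adjusted p = 0.045). After correction 0 of these 4 passed, at -0.71, -0.24, -0.35 and -0.26. With the 3 choroid plexus libraries left out, or with no filter on low values, 0 of all genes tested were called in the interaction.

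In the list of COMPASS subunits, the partners of the H3K4 writers, 1 of 10 tested rose, the coactivator Ncoa6 (0.37, adjusted p = 0.014), and 1 fell, the small subunit Dpy30 (-0.29, adjusted p = 0.0042). Neither was called after correction; Dpy30 has a longest transcript of 789 bases. Among 7 other Jumonji genes Jmjd1c rose (0.48, adjusted p = 0.0074), and Phf2 had 0.20 (adjusted p = 0.16). No gene was called among 14 readers of methylated histones, 10 other writers and 9 genes of S-adenosylmethionine supply. The smallest p in these lists belonged to Mphosph8 (-0.27, adjusted p = 0.061) and Cdyl2 (0.95, adjusted p = 0.064), to Dot1l, the H3K79 writer (0.36, adjusted p = 0.14), and Setdb2 (0.34, adjusted p = 0.39), and to the methionine synthase Mtr (0.24, adjusted p = 0.054) and Ahcyl2 (0.18, adjusted p = 0.092). With memantine and with the combination 0 of the 71 genes were called.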

How the data were processed

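The authors deposited 1 table of normalised signal for 57180 genes in 24 libraries. Per the submitters' processing notes, FastQC, STAR, featureCounts 1.6.0 and DESeq2 1.42.1 were used on mm39; their order and filters are not given in the sources used here. In each library 100% of values were whole multiples of 1 step within 0.01 of a read, so the deposited values are read counts divided by a size factor, and reads were recovered by dividing by the step.

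Values of at least 10 in at least 6 libraries kept 16578 genes. In R 4.3.3, limma 3.58.1 with a trended, two-sided empirical Bayes test fitted 4 group means to log2(value + 1) over 24 libraries, and 6 contrasts were adjusted by Benjamini-Hochberg over all genes tested; no sample was dropped. Count tests on the recovered reads (DESeq2 1.42.0, edgeR 4.0.16) were alternatives. edgeR called 804 genes higher and 811 lower with sarcosine. Length and GC content came from the longest GENCODE vM21 transcript (16287 genes, 98.2%), whose build differs from mm39; a loess of span 0.3 was removed per library. Promoter sequences are from RefSeq on GRCm38.p6. Strand use in counting is not given in the sources used here, so overlapping genes may share reads. The code was tested on simulated data.

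Named genes follow a rule: those called in any contrast, the 12 with the smallest p for sarcosine against vehicle, the 3 with the smallest p in the other 5 contrasts, and the 2 with the smallest p of each partner list. The genes and lists were chosen with earlier results of these data known.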

Additional observations from a re-analysis of the deposited data

Results flagged for a closer look

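The effect of sarcosine differed between mice with and without memantine for 4 genes by the interaction test in limma: Setd2 (-0.48 log2, adjusted p = 0.027), Nsd1 (-0.40, adjusted p = 0.028), Kdm2a (-0.39, adjusted p = 0.041) and Kmt2c (-0.57, adjusted p = 0.047). None was called after the length and GC correction. Nsd3 had 1 library far from the others of its group: memantine replicate 2 was at 1457 normalised counts, and the other 5 memantine libraries were at 1659 to 1763. It was the 1 such library in 72 groups of 6 examined, where about 1 in 20 groups is expected to be marked by chance.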

How the results depend on the processing

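Counts are of the 40 genes called. With sarcosine against vehicle the count was 20. It was 13 with no filter on low values, 12 with the 5 olfactory bulb libraries left out, 0 after length and GC correction, 0 after that correction with a replicate block, 3 after it with regional marker covariates (Ash1l, Kdm2b and Setd1a) and 2 after the robust linear form. That form and the other combinations were added after seeing the data. The robust linear trend was run first, and the default quadratic trend then replaced it to follow the processing already described for these data. Over all genes, 497 of 37607 were higher and 492 lower with no filter. Array weights, with 24 of the 40 genes, called 1652 of all genes higher and 1497 lower. The 2 groups alone, with 14 of the 40, called 514 and 466 of all genes. The correction with regional covariates called 351 and 291 of 16287. Leaving out 1 library gave 13 (without sarcosine replicate 5) to 22, with calls over all genes not given here. Pseudocounts of 0.5 and 10, a filter of 50, upper-quartile scaling, the 2 groups alone, the replicate block, regional covariates, array weights, edgeR, DESeq2 and leaving out the choroid plexus libraries gave 14 to 24.

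With memantine the count was 0, and it was 2 with regional covariates (Kdm3a and Setd1a), 11 with array weights (10 higher), 9 with DESeq2 (8 higher) and 0 to 1 with 1 library left out (1 without combination replicate 1). Over all genes with memantine, regional covariates called 141 higher and 145 lower, array weights 223 and 198, and DESeq2 209 and 221. With the combination the count was 2. It was 0 with no filter, the 2 groups alone, the replicate block, the length and GC correction, that correction with the block and its robust form, and with the olfactory bulb libraries left out. It was 6 with regional covariates, 4 with array weights, 6 with DESeq2, 1 after correction with regional covariates (Setd1a), 4 with the choroid plexus libraries left out and 0 to 5 with 1 library left out. Over all genes with the combination, regional covariates called 473 higher and 616 lower, array weights 125 and 203, and DESeq2 176 and 323. The correction with regional covariates called 66 and 127. For the interaction the count was 4. It was 0 with no filter, after each of the 4 forms of length correction and with the choroid plexus libraries left out, 2 with the replicate block (Setd2 and Nsd1), 14 with regional covariates (13 negative), 16 with array weights (15 negative), 13 with DESeq2 and 0 to 14 with 1 library left out. Over all genes the interaction was negative for 972 and positive for 498 with regional covariates, and for 932 and 584 with array weights. It was 547 and 384 with DESeq2 and 96 and 35 with the replicate block, against 205 and 96 in the main fit. Combination against sarcosine and against memantine had 0 under every alternative run. No named fold change that was called turned its direction under any alternative. The cause of these shifts was not tested.

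Replicate numbers are not said to pair the libraries and were not treated as pairs in the main fit. Deviations of same-numbered libraries correlated above 0.1 in 18 of 36 pairs (-0.75 to 0.73), and 6 of 24 libraries correlated best with their own number. These values do not settle whether libraries of the same number share a batch. Under the replicate block the sarcosine count was 18.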

Other observations

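The 40 genes moved partly together from library to library. After the group means were removed, 498 of the 780 pairs of genes had a positive correlation over the 24 libraries, with a median r of 0.19 and a range of -0.80 to 0.87. The 5 closest pairs were Ash1l with Nsd2 (0.87), Kmt2a with Kmt2d (0.85), Nsd2 with Nsd3 (0.84), Kmt2b with Kmt2d (0.84) and Setd7 with Kdm7a (0.84). All pairs share the same libraries, and so their depth and length trend. The 40 genes' mean centred log2 value and the score of microglial markers had r = -0.47 over the 24 libraries and 0.11 within groups; for olfactory bulb markers it was 0.37 and 0.41.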
